A study of Mus musculus with 45 samples.

Results

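LM3-LM and LM1-LM are mouse mammary tumour cell lines recovered from the lungs of tumour-bearing mice at the second round of lung passage, and their transcriptomes were compared in control medium. The comparison rests on 6 libraries, 3 cultures of each line, out of 45 libraries in the series, chosen by the cell line and treatment labels alone. The lineage starts with Myc310, a line from a mammary tumour of an FVB mouse that carried the MMTV-cMYC transgene (a Myc gene driven by the mouse mammary tumour virus promoter) and had multiple tumours. LM1, LM2 and LM3 were recovered from lungs after Myc310 cells had been placed in a mammary fat pad of FVB/NJ females that were wild type. LM1-LM was recovered in the same way after injection of LM1, and LM2-LM and LM3-LM are its biological replicates in the study's terms, although the methods do not name the line that was injected to obtain LM3-LM. By this account all of these lines share the transgene and the Myc310 origin, and each of the lines compared here is a single isolate. The 3 cultures of a line are called technical replicates in the series' design, so that the p-values given here measure the spread between cultures of a line and not between lines of a kind.

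Cells were seeded at 250000 per well in medium with serum, insulin, hydrocortisone and EGF. The sample labels give every culture a medium change at 24 h, to control medium for 6 h, whereas the series' design and the methods name only some lines for that change, LM1-LM among them and LM3-LM not. Whether LM3-LM cultures received the fresh medium that LM1-LM cultures received is thus unclear, and the line and this handling cannot be told apart. Polyadenylated RNA was sequenced from both ends with a kit that preserves strand, and the values deposited for each gene are read counts in whole numbers. The 6 libraries held 21779599 to 24258746 counts on genes. Of 27336 autosomal gene identifiers, 7298 had no count in any of the 6 libraries and 11907 passed edgeR's filter on low counts. Levels are given as CPM (counts scaled to a common library size) after TMM scaling over the 30 control libraries of 10 lines, and 3 counts in a library corresponded to 0.131 CPM in LM1-LM and 0.133 CPM in LM3-LM. Fold changes, with their standard errors (SE), and p-values come from the quasi-likelihood test of edgeR, with p adjusted by Benjamini and Hochberg over all genes tested and a threshold of 0.05, and positive log2 values mean higher in LM3-LM.

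Serial passage through the lung selects and expands whatever cells of a tumour population seed and grow there, so independent isolates of one parent can carry different gene programmes. Mammary epithelial cells are recognised by simple keratins and desmosomal proteins, and cells that have moved towards a mesenchymal state lose cadherin and tight junction genes and gain vimentin. Genes that tumour cells use to remodel matrix, present antigen, build sterols or respond to BMP ligands are regulated as groups, and groups of neighbouring genes can also differ together along a chromosome.

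The cell type label was checked first against epithelial markers. Krt8 and Krt18, the simple keratins of glandular epithelium, were abundant in both lines, with means of 834 ± 18.9 and 191 ± 9.45 CPM for LM1-LM (n = 3 cultures, SD). Many defining epithelial genes were at the floor of detection. Of 25 genes of the epithelial list, 15 had 3 counts or fewer in every library of LM1-LM and 15 in every library of LM3-LM. Cdh1, which encodes E-cadherin, had 0 counts in all LM1-LM libraries and 0 to 2 counts in those of LM3-LM. Vim, the mesenchymal intermediate filament vimentin, stood at 3937 ± 69.7 CPM in LM1-LM and 3407 ± 46.0 CPM in LM3-LM. Both lines thus had keratin and vimentin transcripts and next to none for E-cadherin. In cultures sequenced in bulk, fewer cells that express a gene and less RNA per cell cannot be told apart.

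The lines differed widely. Of the 11907 autosomal genes, 6325 (53.1%) passed the threshold, 3339 higher and 2986 lower in LM3-LM. Most of these differences were small, since 4580 of the 6325 (72.4%) were under 1.5-fold. Differences above 2-fold were less even between directions, with 802 genes higher (6.74%) and 214 lower (1.8%) in LM3-LM, together 8.53% of the genes tested. Correlations of log2 CPM across genes were 0.9926 to 0.9946 between cultures of a line and 0.952 to 0.9549 between cultures of different lines. For 7096 genes (59.6%) the 3 LM3-LM cultures did not overlap the 3 LM1-LM cultures.

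Among genes with an average log2 CPM of at least 3, predicted gene models left out, the largest increases were in genes that LM1-LM hardly expressed. Tex101, a surface glycoprotein of germ cells, lies on chromosome 7 (24668007 to 24676675, minus strand, GRCm38). Its level was 0.0866, 0.0832 and 0.0929 CPM in the LM1-LM cultures and 74.8, 73.7 and 75 CPM in the LM3-LM cultures, at least 568-fold higher against a floor of 3 counts per library. Lpl, which encodes lipoprotein lipase (chromosome 8, 68880491 to 68907448, plus strand), had no count in any LM1-LM library and 32.6, 30.6 and 30.9 CPM in LM3-LM, at least 239-fold higher. Ina, the neuronal intermediate filament alpha-internexin, likewise had no count in LM1-LM and reached 32.3, 29.4 and 30 CPM in LM3-LM, at least 233-fold higher. The cultures of each line lay close together for these genes. Rasef, a Rab-family GTPase with EF-hands, was at 0 in every LM1-LM culture against 20.4, 17.2 and 19.7 CPM. For Cdcp1, a transmembrane glycoprotein phosphorylated by Src kinases, a single count in 1 LM1-LM library stood against 16.2, 16.8 and 17.2 CPM. Rangrf, a factor that releases guanine nucleotides from Ran and that overlaps Slc25a35 on the opposite strand, had 0.0866, 0.0416 and 0.0464 CPM in LM1-LM and 19.1, 17.2 and 19.5 CPM in LM3-LM. The lower bounds were 146-fold for Rasef, 127-fold for Cdcp1 and 142-fold for Rangrf.

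**Figure D1:**
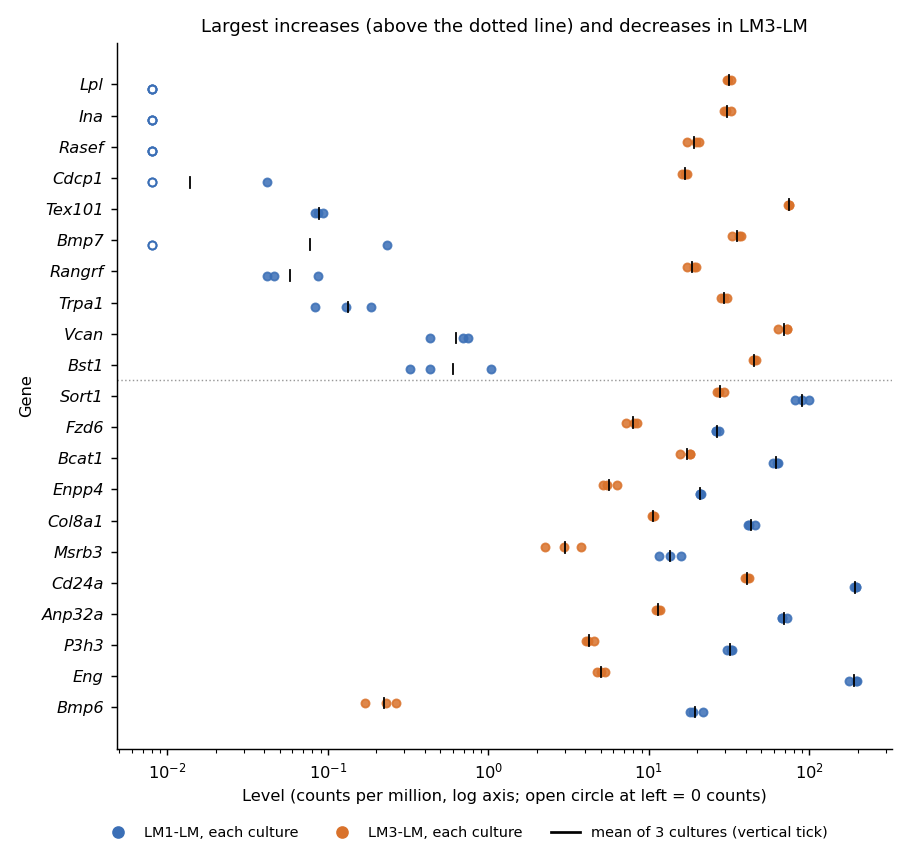
Level of 10 of the genes with the largest increases (above the dotted line) and 11 of those with the largest decreases in LM3-LM, in CPM on a log axis, with 1 point per culture, a tick for the mean of 3 cultures and open circles at the left for 0 counts. Separation of the 3 LM3-LM cultures from the 3 LM1-LM cultures was a condition for choosing these genes. Lpl, Ina and Rasef have no count in LM1-LM.

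Other large increases started from very low levels. Bmp7, a ligand of the bone morphogenetic protein (BMP) family, had 0, 0 and 0.232 CPM against 37.4, 36.2 and 33.2 CPM (log2 difference 8.83, SE 0.25, adjusted p = 1.27e-12). With 0 counts in 2 of the LM1-LM libraries the fitted size for Bmp7 rests on LM1-LM culture 3, without which it was 12.7, and it is no bound. Vcan, the matrix proteoglycan versican, had 0.433, 0.749 and 0.696 CPM in LM1-LM and 72.4, 63.8 and 72.6 CPM in LM3-LM (log2 difference 6.79, SE 0.12, adjusted p = 5.31e-15). Each of these genes was near the floor in LM1-LM and uniform across the LM3-LM cultures. Trpa1, an irritant-sensing cation channel, averaged 0.133 ± 0.0513 CPM in LM1-LM and 29.3 ± 1.22 CPM in LM3-LM. The ectoenzyme gene Bst1 averaged 0.599 ± 0.385 and 45.2 ± 0.979 CPM (n = 3, SD), and the log2 differences of Trpa1 and Bst1 were 7.75 and 6.20. Without LM1-LM culture 2 that of Bst1 was 6.87.

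Among genes with an average log2 CPM of at least 3, predicted gene models left out, the decrease with the largest fitted size was in another BMP ligand. Bmp6 (chromosome 13, 38345107 to 38500302, plus strand) was at 18.8, 21.8 and 17.9 CPM in LM1-LM and 0.266, 0.231 and 0.171 CPM in LM3-LM, so that its log2 difference was -6.42 (SE 0.19, adjusted p = 1.47e-12). Eng, which encodes endoglin, a co-receptor for TGF-beta family ligands, followed with 176, 195 and 198 CPM in LM1-LM and 4.75, 5.03 and 5.31 CPM in LM3-LM (log2 difference -5.23, SE 0.07, adjusted p = 6.01e-16). Of these 2 BMP ligands, Bmp6 was thus the higher in LM1-LM and Bmp7 the higher in LM3-LM. P3h3, a member of the collagen prolyl 3-hydroxylase family, had 33.1, 30.6 and 32.5 CPM in LM1-LM and 4.17, 4.52 and 4.07 CPM in LM3-LM (log2 difference -2.91, SE 0.08, adjusted p = 1.15e-12). Anp32a, an acidic nuclear phosphoprotein, had 69.2 ± 2.65 CPM in LM1-LM and 11.4 ± 0.332 CPM in LM3-LM. Its log2 difference was -2.60. Lower levels in LM3-LM also held for the surface mucin gene Cd24a (192 against 40.9 CPM, log2 difference -2.23), the cytosolic branched-chain aminotransferase gene Bcat1 (62.0 against 17.2 CPM, -1.85), the Wnt receptor gene Fzd6 (26.5 against 7.91 CPM, -1.74) and the sorting receptor gene Sort1 (90.1 against 27.7 CPM, -1.70). Msrb3, Col8a1 and Enpp4 were also among the largest decreases, with log2 differences of -2.17, -2.02 and -1.89. Ina, Eng and Bmp6 overlap Nt5c2, Fpgs and Txndc5 on the opposite strand, and since the strand setting of the counting is not given in the sources used here, the share of reads from those neighbours is uncertain.

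A set of genes was detected in one line only, defined as 3 counts or fewer in each library of a line and at least 50 counts in each library of the other. This held for 34 genes detected in LM3-LM only (0.286% of the genes tested) and 2 detected in LM1-LM only (0.0168%). The pair detected in LM1-LM only was Arhgap29, a GTPase-activating protein, at 7.84, 7.70 and 7.43 CPM, and Piezo2, a mechanically gated channel, at 4.55, 4.83 and 3.90 CPM. Both had 0 to 3 counts in each LM3-LM library, and they were at least 57.5-fold and 33.2-fold lower in LM3-LM. Beyond the genes already described, the 34 included Zfp518b, a zinc finger gene (0 counts in LM1-LM, 14.2, 14.7 and 13.4 CPM in LM3-LM), Erfe, which encodes the iron-regulating hormone erythroferrone (0 counts and 11, 11.7 and 12.8 CPM), Nlrc5, the transactivator of MHC class I genes (0 to 1 count and 5.28, 5.03 and 5.44 CPM), and Lamb3, a laminin chain of epithelial basement membrane.

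The levels of these 34 genes in the other lines of the lineage were graded. LM3 had at least 50 counts in each library for 29 of the 34 and was at the floor for none. LM1 had 50 counts in each library for 1 of the 34 and was at the floor for 7, so that most were measurable in LM1 at a low level. As a share of the LM3 mean, the LM1 mean had a median of 6.91% over the 34 genes, with 18 genes between 5% and 15%, 12 below and 4 above. Ina, for example, had 2.79 CPM in LM1, 25.0 CPM in LM3 and 24.5 CPM in LM2-LM, and Rangrf had 1.28 CPM in LM1, 18.8 CPM in LM3 and 18.9 CPM in Myc310. Tex101, by contrast, was low in Myc310 (2.58 CPM) and in LM2-LM (0.0393 CPM) and at 38.0 CPM in LM3. LM2-LM had 50 counts in each library for 10 of the 34 and was at the floor for 7, and Myc310 had these counts for 19 and was at the floor for 3.

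**Figure D2:**
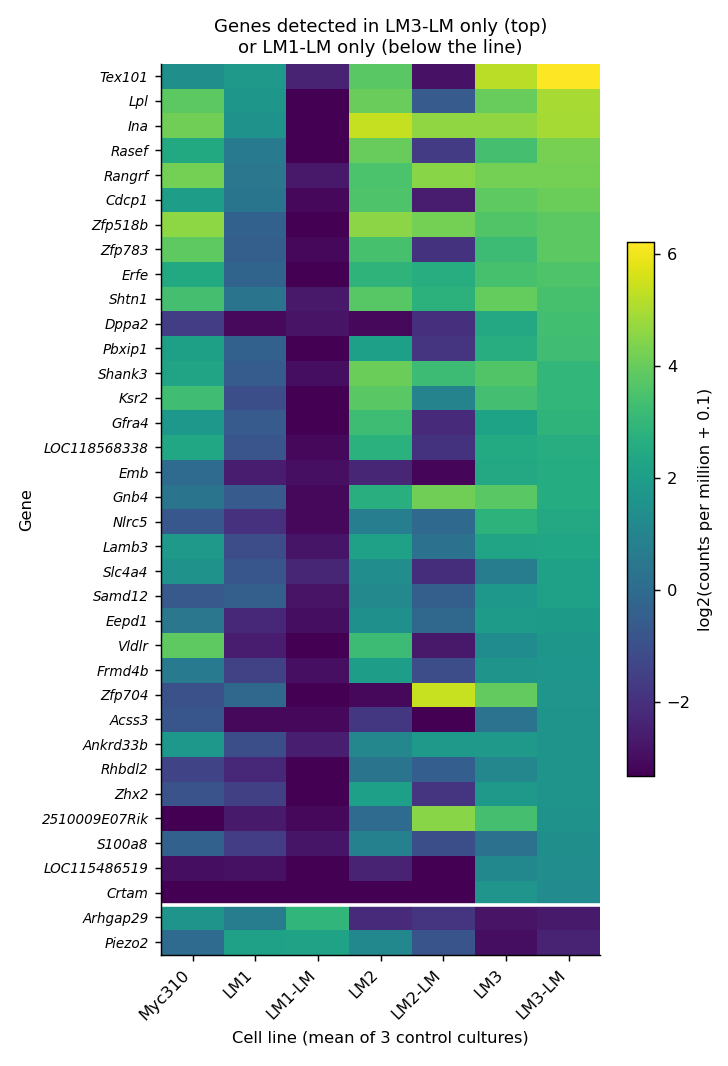
Mean level over 3 control cultures, as log2(CPM + 0.1), of the 34 genes detected in LM3-LM only (above the white line) and the 2 detected in LM1-LM only (below it) in the 7 lines of the Myc310 lineage. The LM1-LM column is dark throughout the upper part, the LM1 column is intermediate for most genes, and the LM3 and LM3-LM columns are alike in brightness for most genes.

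Promoter sequences of genes with this all-or-none difference are shown because they carry the features by which promoters are classed, CG dinucleotides and the TATA motif. RefSeq windows (GRCm38.p6) were found for 22 of the 34 genes detected in LM3-LM only, and the 250 bases before the start site were read, taking the start site nearest the annotated 5′ end. Of the 10 such genes named above, the 4 whose start site lay within 50 bases of that end are printed 5′ to 3′ on the strand of the gene, with CG dinucleotides in capitals.
Ina, chr19:47014431-47014680, plus strand: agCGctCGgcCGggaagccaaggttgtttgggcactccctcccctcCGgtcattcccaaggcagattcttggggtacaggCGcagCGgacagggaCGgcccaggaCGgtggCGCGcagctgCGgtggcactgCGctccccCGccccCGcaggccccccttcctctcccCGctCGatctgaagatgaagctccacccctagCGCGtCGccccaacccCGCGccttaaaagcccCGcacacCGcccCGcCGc
Cdcp1, chr9:123216039-123216288, minus strand: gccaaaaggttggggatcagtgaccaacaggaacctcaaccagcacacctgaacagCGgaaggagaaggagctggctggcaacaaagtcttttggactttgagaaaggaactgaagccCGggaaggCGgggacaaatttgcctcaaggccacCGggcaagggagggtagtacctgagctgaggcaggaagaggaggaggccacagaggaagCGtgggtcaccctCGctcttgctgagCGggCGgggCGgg
Zfp518b, chr5:38684827-38685076, minus strand: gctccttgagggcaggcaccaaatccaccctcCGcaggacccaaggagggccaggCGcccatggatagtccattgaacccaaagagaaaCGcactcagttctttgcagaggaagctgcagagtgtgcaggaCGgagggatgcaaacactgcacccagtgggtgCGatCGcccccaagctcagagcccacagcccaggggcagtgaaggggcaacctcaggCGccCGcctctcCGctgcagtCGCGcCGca
Erfe, chr1:91366180-91366429, plus strand: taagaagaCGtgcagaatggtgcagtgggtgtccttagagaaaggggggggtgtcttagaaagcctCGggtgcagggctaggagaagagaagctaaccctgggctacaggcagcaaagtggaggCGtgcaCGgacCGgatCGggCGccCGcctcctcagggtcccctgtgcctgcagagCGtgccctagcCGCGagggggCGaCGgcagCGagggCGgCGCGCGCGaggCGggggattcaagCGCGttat
These windows held 25 CG dinucleotides in Ina, 9 in Cdcp1, 12 in Zfp518b and 22 in Erfe. Over the 22 genes the median was 14.5 CG dinucleotides, with a range of 2 to 44, against a median of 17 in the windows of 8940 autosomal genes tested and 6 in all 32817 windows of the table. TATAAA on either strand was found in 1 of the 22 windows (4.55%), that of S100a8, against 5.88% of the genes tested and 12.4% of all windows. A match or its absence describes these letters only.

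Keratin genes and the desmosomal gene Dsp were higher in LM3-LM. Of 9 tested members of the epithelial list, 6 passed the threshold (66.7% against 53.1% of all autosomal genes) and all 6 were higher by more than 2-fold, with a list median of 1.55 against -0.00388 for all autosomal genes tested. Dsp, the desmosomal plaque protein desmoplakin, had 0.736, 0.957 and 0.882 CPM in LM1-LM and 47.9, 46.9 and 51.8 CPM in LM3-LM (log2 difference 5.82, SE 0.10, adjusted p = 5.68e-15). Krt19 had 5.98, 4.12 and 5.80 CPM against 110, 115 and 108 CPM (4.39, SE 0.08, adjusted p = 1.62e-14), and Krt7 had 6.06, 5.33 and 5.57 CPM against 82.1, 83.8 and 86.3 CPM (3.90, SE 0.06, adjusted p = 3.47e-15). The keratins that were abundant in both lines differed less, with log2 differences of 1.55 for Krt18 and 1.06 for Krt8. Grhl2, a transcription factor of epithelial junction genes, had 0 to 3 counts in each LM1-LM library and 1.94 ± 0.426 CPM in LM3-LM, at least 14.8-fold higher. The tight junction genes did not pass the threshold, with log2 differences of 0.20 for Ocln (adjusted p = 0.392), 0.03 for Tjp1 (adjusted p = 0.45) and 0.75 for Marveld2 (adjusted p = 0.11), and Cldn3, Cldn4 and Cldn7 had at most 1 count in any library of either line. Of the 6, Krt7, Krt8, Krt18 and Grhl2 are on chromosome 15, whose genes were higher as a whole, and without members on chromosomes 6 and 15 the median of the other 5 members was 0.75.

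The mesenchymal list did not move one way. Of its 17 tested members 13 passed (76.5%, against 53.1% of all autosomal genes), 4 higher and 9 lower, with a median of -0.12. Tgfbi, a matrix protein induced by TGF-beta, was higher (0.743 ± 0.12 against 4.25 ± 0.424 CPM, log2 difference 2.51). Acta2, smooth muscle actin, was lower, from 1.95, 1.62 and 1.58 CPM in LM1-LM to 0 to 3 counts per LM3-LM library, at least 12.9-fold. Vim differed by -0.21 (adjusted p = 7.06e-06), and Zeb1, a repressor of epithelial genes, had 61.4 ± 2.73 and 63.7 ± 3.57 CPM (log2 difference 0.06, adjusted p = 0.38). Among genes of basal mammary cells, 7 of 8 tested members (87.5%) were higher in LM3-LM and none lower, with a median of 0.66. Of all autosomal genes 28.0% were higher. Sox9, a transcription factor of mammary progenitors, had 0.433, 0.166 and 0.139 CPM in LM1-LM and 9.98, 11.8 and 11.2 CPM in LM3-LM (log2 difference 5.45, SE 0.24, adjusted p = 1.53e-10), and its log2 difference was 6.11 without LM1-LM culture 1. Egfr, the receptor of the EGF present in the medium, had 0.217, 0.499 and 0.371 CPM against 8.29, 7.43 and 6.6 CPM (4.33, SE 0.24, adjusted p = 1.53e-09). The basal keratin genes Krt5 and Krt14 and the basal regulator Trp63 did not pass the filter on low counts. Of 7 tested luminal genes 4 were higher and 1 was lower (71.4%), with a median of 0.70. The lower one was the luminal regulator Gata3 (69.8 ± 3.35 against 54.4 ± 3.56 CPM, log2 difference -0.36). The luminal regulators Elf5, Foxa1 and Esr1 did not pass the filter either.

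Matrix genes differed in both directions. Of 19 collagen and laminin genes tested, 18 passed (94.7%, against 53.1% of all autosomal genes), 12 higher and 6 lower in LM3-LM, with a median of 0.25. Both beaded-filament collagen genes that passed the filter were higher, while Col6a2 (0.20 and 0.458 CPM) was below it. Col6a3 had 5.07, 4.49 and 4.87 CPM in LM1-LM and 62.0, 55.6 and 61.4 CPM in LM3-LM (log2 difference 3.63, SE 0.07, adjusted p = 2.33e-14), and Col6a1 averaged 11.9 and 53.5 CPM (2.18). Of the fibrillar genes, Col5a3 (24.0 against 155 CPM, 2.70) and Col3a1 (56.6 against 203 CPM, 1.85) were higher, Col5a1 was slightly so (232 against 275 CPM, 0.25), and Col5a2, with 0 to 3 counts in each LM3-LM library, was at least 4.36-fold lower (edgeR adjusted p = 0.00116). Col1a1 (0.448 and 0.104 CPM) and Col1a2 (0.304 and 0.0868 CPM) stayed below the filter. In the other direction, Col12a1, a collagen that binds to fibrils, had 9.79, 9.90 and 11.2 CPM in LM1-LM and 1.15, 1.39 and 1.24 CPM in LM3-LM (-3.02, SE 0.15, adjusted p = 5.76e-10). Other matrix genes numbered 7 higher and 4 lower of 14 tested (78.6%), with a median of -0.01, or -0.18 for the 11 members outside chromosomes 6 and 15. Among them was Spp1, the secreted phosphoprotein osteopontin, at 247 ± 10.9 and 706 ± 24.7 CPM (log2 difference 1.52).

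Proteases and their inhibitors were higher in LM3-LM wherever they passed the threshold. This was 15 of 21 members tested (71.4%), with none lower and a median of 0.68. Of all autosomal genes 53.1% passed, 28.0% as higher. Serpine2, an inhibitor of thrombin and plasminogen activators, had 12, 11.7 and 9.66 CPM in LM1-LM and 120, 115 and 122 CPM in LM3-LM (log2 difference 3.42, SE 0.06, adjusted p = 7.99e-15). Both plasminogen activator genes were higher, Plat at 15.9 against 57.1 CPM (1.85) and Plau at 58.9 against 146 CPM (1.32). Mmp3, a stromelysin, had 15.4 ± 3.08 and 30.8 ± 2.21 CPM. Among 15 integrin genes tested, 9 were higher and 2 lower (73.3%). Itgb3, the beta subunit of receptors for vitronectin and osteopontin, averaged 9.29 and 51.8 CPM (2.48) and Itgb5, an alternative partner of the same alpha subunit, 77.3 and 40.8 CPM (-0.92), and the list had a median of 0.50, or 0.238 without Itga5 and Itgb7 on chromosome 15. Of 10 tested mouse counterparts of a published lung metastasis signature 6 were higher and 2 lower (80.0%), with a median of 0.49. They included Angptl4, a secreted inhibitor of lipoprotein lipase (1.45 ± 0.638 against 7 ± 0.821 CPM, 2.26), and the chemokine gene Cxcl1 (5.91 ± 0.738 against 15.4 ± 0.80 CPM, 1.39).

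Most tested antigen presentation and interferon-stimulated genes were higher in LM3-LM. In the MHC class I list 17 of 23 tested members were higher and 1 lower (78.3%, against 53.1% of all autosomal genes), with a median of 0.50. Psmb8, a catalytic subunit of the immunoproteasome, had 2.17, 2.04 and 3.62 CPM in LM1-LM and 29.9, 31.2 and 28.7 CPM in LM3-LM (log2 difference 3.53, SE 0.14, adjusted p = 3.46e-11). Psmb9, another such subunit, had 0.787 ± 0.336 and 4.39 ± 0.411 CPM (2.48). The peptide transporter genes Tap1 and Tap2 differed by 1.01 and 1.71, and the class I heavy chain genes H2-K1 (87.4 against 168 CPM) and H2-D1 (300 against 459 CPM) by 0.94 and 0.62. Reads of the near-identical H2 genes may be divided uncertainly among them. Of 28 interferon-stimulated genes tested, 22 were higher and 1 lower (82.1%), with a median of 0.80. Isg15, Irf7, Bst2, Oasl1 and Dhx58 did not pass the threshold, with adjusted p-values of 0.135, 0.0568, 0.317, 0.19 and 0.0767, and Ifit1, Ifit3, Mx1 and Oas2 were among the members below the filter. The higher members included the antiviral genes Ifit2 (15.4 against 28.3 CPM, 0.88) and Oas3 (16.3 against 30.5 CPM, 0.90) and the signal transducer Stat2 (3.68 against 7.89 CPM, 1.10). Samd9l, an antiviral effector on chromosome 6, was the member that was lower (24.8 against 10.2 CPM, -1.28). Of 18 cytokine and chemokine genes tested, 11 were higher and 4 lower (83.3%), with a median of 0.47. The higher ones included Il23a, a subunit of interleukin 23 (2.60 ± 0.689 against 11.3 ± 0.186 CPM, 2.12).

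Sterol and fatty acid synthesis genes were higher almost throughout. Of 30 members tested, 29 passed (96.7%, against 53.1% of all autosomal genes), 25 higher and 4 lower in LM3-LM, with a median of 0.51. Of these, 3 members were beyond 2-fold. Fdps, farnesyl diphosphate synthase, had 51.9, 43.1 and 37.1 CPM against 93.2, 96.4 and 92.9 CPM (1.10, SE 0.08, adjusted p = 3.44e-08). The desaturase gene Scd1 averaged 130 and 208 CPM (0.68). Fads2, a desaturase of polyunsaturated fatty acids, was lower (31.7 against 19.8 CPM, -0.68).

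Genes of glutathione synthesis were slightly lower in LM3-LM, and the question bears on the study's subject, cysteine and glutathione supply in metastatic cells. Gclc and Gclm, the subunits of glutamate-cysteine ligase, had 86.4, 82.8 and 84.1 CPM and 108, 115 and 118 CPM in LM1-LM, respectively. In LM3-LM they had 63.7, 62.9 and 66.6 CPM and 78.5, 74.6 and 76.2 CPM, with log2 differences of -0.39 (SE 0.04, adjusted p = 1.48e-06) and -0.57 (SE 0.04, adjusted p = 5.4e-08). Gss, glutathione synthetase, averaged 36.3 and 30.1 CPM (-0.27, adjusted p = 0.000995), and Cth, the second enzyme of transsulfuration, 24.5 and 20.4 CPM (-0.26, adjusted p = 0.00315). No culture of one line overlapped the other for these 4 genes, as for 59.6% of all autosomal genes. The reductase gene Gsr differed by -0.10 (adjusted p = 0.032) and Slc7a11, the cystine transporter subunit xCT, by 0.26 (10.1 ± 0.659 against 12.1 ± 0.917 CPM, adjusted p = 0.0332). Both calls were lost without single libraries or, for Slc7a11, in DESeq2, where the adjusted p was 0.072. Over the alternatives the adjusted p ranged from 0.00125 to 0.133 for Gsr and from 0.0179 to 0.132 for Slc7a11. Cbs, the first transsulfuration enzyme, stayed below the filter at 0.0588 CPM in LM1-LM and 0.326 CPM in LM3-LM. Gpx1, Gpx3, Gpx4 and Chac1 had adjusted p-values of 0.674, 0.929, 0.113 and 0.116, and leaving out 1 library took Gpx4 (0.0288) and Chac1 (0.0183) past the threshold. Of 11 tested members of a short list, which holds the above genes and Myc, 1 (Slc7a11) was higher and 6 were lower (63.6%, near the 53.1% of all autosomal genes), with a median of -0.10.

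Across the wider glutathione and cysteine list 6 of 28 tested members were higher and 11 lower (60.7%, near the 53.1% of all autosomal genes), with a median of 0.00354. Of the 6 higher members 5 are on chromosomes 6 and 15, and of the 22 members elsewhere 1 was higher and 11 were lower, with a median of -0.0901 against -0.0256 for all genes elsewhere. Glutathione S-transferases went mostly the other way, with 10 higher and 2 lower of 15 tested (80.0%) and a median of 0.37. Mgst1, a microsomal transferase on chromosome 6, had 2.73, 1.87 and 2.55 CPM in LM1-LM and 21.6, 18.9 and 19.1 CPM in LM3-LM (log2 difference 3.06, SE 0.13, adjusted p = 6.96e-11), and Gstm7 had 1.42 ± 0.31 and 7.06 ± 0.523 CPM (2.31). NRF2 targets were divided, 11 higher and 11 lower of 28 tested (78.6%), with a median of 0.04. Aldh3a1, an aldehyde dehydrogenase, had 0.39, 0.291 and 0.325 CPM in LM1-LM and 14.9, 15.7 and 16.1 CPM in LM3-LM (5.52, SE 0.16, adjusted p = 1.9e-12), Osgin1 was higher by 1.42, and Hmox1, heme oxygenase, was lower (33.8 against 27.9 CPM, log2 difference -0.27, adjusted p = 0.000784). Serine and one-carbon genes numbered 2 higher and 7 lower of 18 tested (50%, near the 53.1% of all autosomal genes), with a median of -0.05 and none beyond 2-fold. Methionine synthase, Mtr, averaged 59.5 ± 2.67 and 41.8 ± 1.21 CPM (-0.50).

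Lists that respond to medium were examined because of the unclear medium change. In the amino acid response list 16 of 36 tested members were higher and 10 lower (72.2%, against 53.1% of all autosomal genes), with a median of 0.04. Atf4, the transcription factor at its centre, averaged 140 ± 0.814 CPM in LM1-LM and 237 ± 4.71 CPM in LM3-LM (log2 difference 0.76), on chromosome 15, and its targets Trib3 (10.4 against 18.5 CPM, 0.83) and Ddit4 (88.0 against 157 CPM, 0.84) were higher. Asns, asparagine synthetase, was lower (189 against 146 CPM, -0.37). In the serum and medium change list 18 of 37 tested were higher and 8 lower (70.3%), with a median of 0.14. The immediate-early gene Egr1 had 0.26, 0.666 and 0.371 CPM in LM1-LM and 1.73, 1.43 and 1.67 CPM in LM3-LM (1.88, SE 0.33, adjusted p = 0.00026). Pdk4, a kinase that restrains pyruvate oxidation and lies on chromosome 6, had 4.03, 4.91 and 3.95 CPM against 0.0444, 0.139 and 0.171 CPM (-5.12, SE 0.33, adjusted p = 9.57e-09). The part of medium handling in these values was not tested. Of the 32 hypoxia and glycolysis genes tested 18 were higher and 5 lower (71.9%), with a median of 0.25. Of the 18 higher members 6 are on chromosomes 6 and 15, and the median of the 25 members elsewhere was 0.13. Ndrg1, a hypoxia-induced gene on chromosome 15, averaged 18.4 and 52.1 CPM (1.5), and Car12, a membrane carbonic anhydrase, 132 and 60.5 CPM (-1.13).

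BMP and TGF-beta signalling genes had a median of -0.16, with 8 higher and 14 lower of 28 tested (78.6%, against 53.1% of all autosomal genes). Apart from the ligands and endoglin described above, the BMP-responsive inhibitor Smad6 (3.94, 5.87 and 8.12 CPM in LM1-LM, 2.97, 2.77 and 2.27 CPM in LM3-LM) and the signal transducer Smad9 (5.18 ± 1.07 against 1.47 ± 0.247 CPM) were lower, with log2 differences of -1.16 (SE 0.23, adjusted p = 0.000726) and -1.81 (SE 0.21, adjusted p = 4.58e-06). Id2, another BMP target, was lower as well (16.3 ± 2.69 against 9.84 ± 1.59 CPM, -0.72). Id1, a further BMP target, averaged 70.2 and 62.6 CPM and did not pass (-0.16, adjusted p = 0.108). Wnt and Notch genes numbered 13 higher and 4 lower of 26 tested (65.4%, against 53.1% of all autosomal genes), with a median of 0.25. Wnt7b, a ligand gene on chromosome 15, had 14.1, 14.7 and 18 CPM in LM1-LM and 70.5, 70.6 and 68.2 CPM in LM3-LM (2.17, SE 0.07, adjusted p = 7.57e-12), and Notch1 averaged 15.3 and 34.4 CPM (1.18). Fzd6, the Wnt receptor named among the largest decreases, is also on chromosome 15. Growth factor and receptor kinase genes numbered 20 higher and 4 lower of 31 tested (77.4%), with a median of 0.42. The higher ones included the PDGF receptor gene Pdgfra (3.13 against 16.7 CPM, 2.41).

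**Figure D3:**
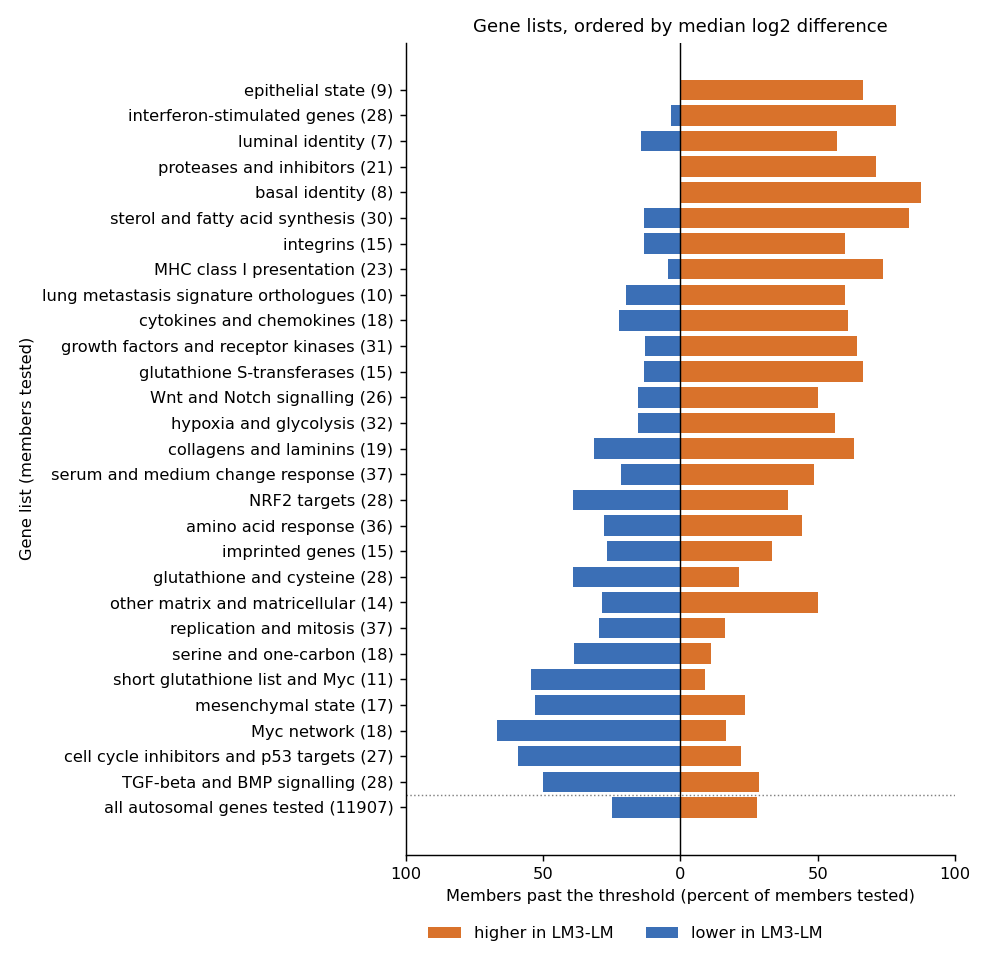
Share of tested members that passed the threshold in each gene list with at least 7 tested members, as bars to the right (higher in LM3-LM) and to the left (lower), with the number tested in parentheses and lists ordered by their median log2 difference. The epithelial, protease and basal lists have no bar to the left, and the last row gives all 11907 autosomal genes, with 28.0% higher and 25.1% lower.

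Myc itself was lower in LM3-LM, with 731, 688 and 706 CPM against a mean of 1075 ± 35.6 CPM in LM1-LM (log2 difference -0.60, SE 0.03, adjusted p = 7.02e-10). The gene is on chromosome 15, most of whose genes were higher, and whether the transgene contributes to these counts was not tested. In the Myc network list 12 of 18 tested members were lower and 3 higher (83.3%), with a median of -0.12. Of all autosomal genes 53.1% passed, 25.1% as lower. Among the lower members was Mga, a repressor that pairs with Max (91.6 against 47.4 CPM, -0.95). The Myc target Ncl, the nucleolar protein nucleolin, differed by -0.18 (adjusted p = 0.000164). Replication and mitosis genes numbered 6 higher and 11 lower of 37 tested (45.9%, against 53.1% of all genes), with a median of -0.03 and none beyond 2-fold. Cell cycle inhibitors and p53 targets numbered 6 higher and 16 lower of 27 tested (81.5%), with a median of -0.13. Ccng1, a p53 target, averaged 392 ± 4.54 and 250 ± 1.27 CPM (-0.65), and Cdkn2c, an inhibitor of cyclin-dependent kinases, 50.6 and 26.7 CPM (-0.92).

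Genes of chromosomes 15 and 6 differed as blocks. For genes with an average log2 CPM of at least 3, the median log2 difference on chromosome 15 was 0.485 (SD 0.00475 over the 3 LM3-LM cultures, 379 genes), a 1.40-fold higher level. Of these genes 362 (95.5%) were higher in LM3-LM, and 350 passed the threshold as higher against 12 as lower. The median on chromosome 6 was 0.336 (SD 0.0211, 444 genes, 78.6% higher). On the other 17 autosomes together the median was -0.03 (8086 genes), and their single medians lay between -0.08 and 0.03. The values of the single LM3-LM cultures for chromosome 15 lay between 0.476 and 0.485.

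**Figure D4:**
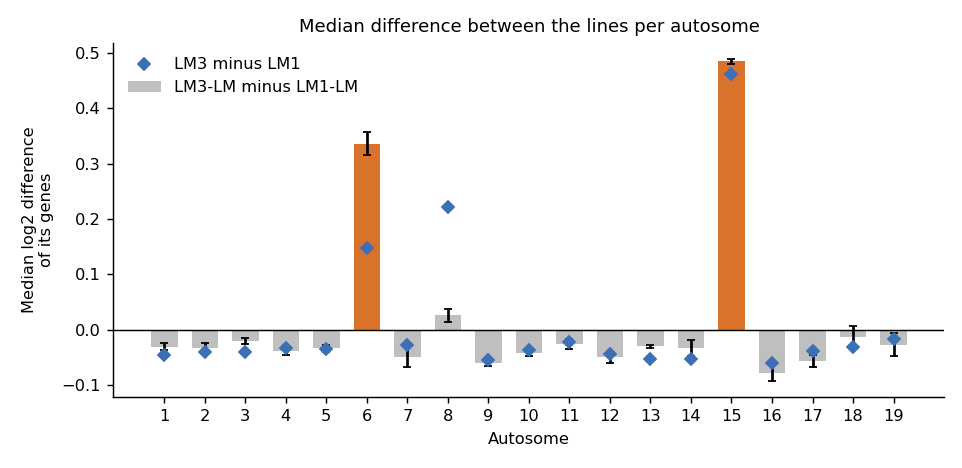
Median log2 difference of genes with an average log2 CPM of at least 3 on each autosome, as bars for LM3-LM minus LM1-LM with the SD over the 3 LM3-LM cultures and as diamonds for LM3 minus LM1. Chromosome 15 stands at 0.485 and 0.463, chromosome 6 at 0.336 and 0.147, and chromosome 8 has a raised diamond (0.222) above a bar near 0.

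The running median over 51 neighbouring genes was above 0.25 across chromosome 15 from Golph3 to Tns2 (12321450 to 102116401, 329 genes), the genes nearest the ends having no full window. Within it Krt7, Fam83a (8.14 against 67.1 CPM, 3.04), Wnt7b and Vdr, the vitamin D receptor (6.94 against 25.5 CPM, 1.89), had log2 differences well above the median of the stretch (0.478), and Myc and Fzd6 were lower. Chromosome 6 was divided. From Mkln1 to Ndufb2 (31398735 to 39603382) 36 genes had a median of -0.45, 28 of them past the threshold as lower, including Trim24, a nuclear receptor cofactor (74.5 against 36.3 CPM, log2 difference -1.03). Podxl, the surface sialomucin podocalyxin, lies in this stretch and was higher (24.1 against 112 CPM, 2.21). From Zfp398 to Rpl38-ps2 (47835661 to 140747172) 314 genes had a median of 0.402, 272 of them past the threshold as higher, with Mgst1 and the paired membrane protein genes Tmem176a (2.69, 2.83 and 2.41 CPM in LM1-LM, 20.4 CPM in each LM3-LM culture) and Tmem176b far above the median. Tmem176a and Tmem176b overlap on opposite strands. A short stretch of 7 genes on chromosome 5 (76232612 to 76999937) had a median of 0.315, including the purine synthesis gene Paics (421 against 590 CPM). Each stretch is a run of genes whose centred 51-gene window had a median beyond 0.25 in either direction, so its edges are blurred. The stretch medians come from the values that defined the stretches.

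Set against Myc310, chromosome 15 was at 0.405 in LM3-LM and 0.428 in LM3, at 0.27 in LM2, and at -0.0709 in LM1-LM, -0.0467 in LM1 and -0.046 in LM2-LM (median log2 differences). LM2, LM3 and LM3-LM thus lay above Myc310 on this chromosome, and LM1, LM1-LM and LM2-LM slightly below it. For the second stretch of chromosome 6 the medians against Myc310 were -0.337 in LM1-LM, -0.32 in LM1 and -0.313 in LM2-LM, and 0.0274 in LM2, -0.0799 in LM3 and 0.103 in LM3-LM. For the first stretch they were 0.489 in LM1-LM and 0.517 in LM1, 0.0368 in LM3-LM, -0.0753 in LM2, -0.147 in LM3 and -0.403 in LM2-LM, so that LM2-LM lay on the other side of Myc310 from LM1 and LM1-LM there. These values share the Myc310 libraries. The 2 chromosomes held 135 of the 802 genes that were more than 2-fold higher (70 on chromosome 15 and 65 on chromosome 6), so that 667 lay elsewhere. Without them, 2550 genes were higher and 2891 lower on the other 17 autosomes (23.6% and 26.7% of 10811 tested).

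**Figure D5:**
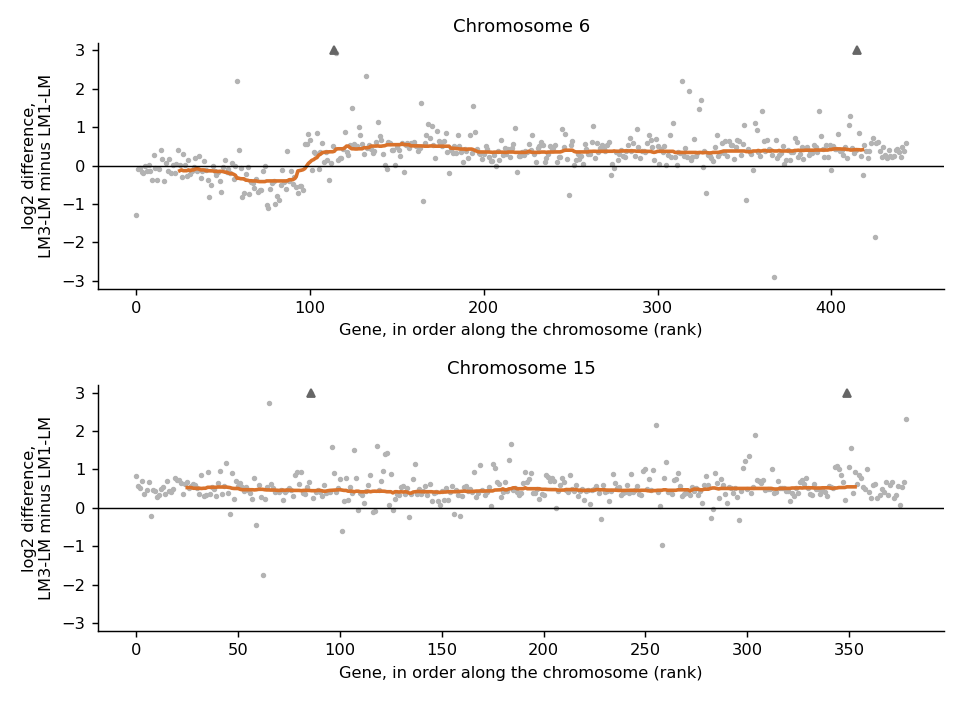
Log2 difference of each gene (points, with triangles for genes beyond 3) and running median over 51 neighbouring genes (line) in gene order along chromosomes 6 and 15. On chromosome 6 the line lies below 0 up to about gene 100 in rank and above 0 after it, and on chromosome 15 it lies above 0 throughout.

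Equally numbered lines of the first lung passage, LM3 and LM1, gave a second comparison that shares no library with the first, although LM1-LM descends from LM1. The methods also name LM1 and not LM3 for the medium change, so the unclear handling applies to both comparisons. Its part in their likeness was not tested. Fitted over the 12 libraries of these 4 lines, LM3 against LM1 gave 6060 of 12279 autosomal genes past the threshold (49.4%), 3347 higher and 2713 lower in LM3. Beyond 2-fold, 853 (6.95%) were higher and 136 (1.11%) lower, together 8.05%. Of the 1016 genes that differed more than 2-fold between LM3-LM and LM1-LM, 967 (95.2%) had the same sign in LM3 against LM1, 842 of them past the threshold, and 18 passed it with the opposite sign. For 343 of the 1016 the difference of the differences passed the threshold. The log2 differences of the 2 comparisons had a Pearson r of 0.791 across 11905 genes, which are not independent, and 0.789 without chromosomes 6 and 15. The difference of the differences itself passed the threshold for 2046 genes (16.7%), 1029 in favour of LM3-LM (8.38%) and 1017 the other way (8.28%). Of these, 316 (2.57%) exceeded 2-fold. With the cultures of 1 replicate number left out, 1049 to 1363 genes passed, from fewer samples.

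Several of the genes with the smallest adjusted p in that test were ones in which LM1-LM or LM3-LM had departed from the lines of the first passage. Dapk1, a death-associated kinase, had 64.0 and 61.1 CPM in LM1 and LM3, 78.0 ± 2.65 CPM in LM3-LM and 22.5 ± 0.679 CPM in LM1-LM (difference of differences 1.87, adjusted p = 1.91e-13). P3h3 had 10.0 and 10.7 CPM in LM1 and LM3 and was higher in LM1-LM and lower in LM3-LM (-3.0, adjusted p = 5.52e-13). For Bcat1, LM1 and LM3 had 49.4 and 56.7 CPM, against 17.2 CPM in LM3-LM (-2.04, adjusted p = 5.66e-13). Fkbp10, a chaperone of collagen in the endoplasmic reticulum, differed strongly at the first passage (4.19 CPM in LM1, 62.4 CPM in LM3) and less at the second (58.9 CPM in LM1-LM, 91.4 CPM in LM3-LM), with a difference of differences of -3.24 (adjusted p = 1.91e-13). Hspb7, a small heat shock protein, was higher in LM3 than in LM1 (88.4 against 40.1 CPM) but lower in LM3-LM than in LM1-LM (77.9 against 106 CPM; -1.58, adjusted p = 1.91e-13). For other genes it did not pass the threshold. The difference of differences was 0.03 (SE 0.23, adjusted p = 0.962) for Psmb8, for Egfr -0.49 (SE 0.45, adjusted p = 0.551) and for Bmp6 -0.90 (SE 0.42, adjusted p = 0.19). An adjusted p above the threshold does not show that these differences were equal.

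The remaining lines were placed by whether their mean log2 level lay nearer LM3-LM or LM1-LM. Of the 802 genes more than 2-fold higher in LM3-LM, LM3 lay nearer LM3-LM for 94.9%, LM2 for 84.5%, Myc310 for 42.5%, LM2-LM for 30.7% and LM1 for 6.73%. Of the 214 genes more than 2-fold lower, the shares were 72.9% for LM3, 72.0% for LM2, 58.9% for Myc310, 45.8% for LM2-LM and 21% for LM1. LM2 thus lay on the side of LM3-LM and LM2-LM more often on that of LM1-LM, across single genes such as Krt19 (74.5 CPM in LM2, 3.17 CPM in LM2-LM) and Spp1 (621 CPM in LM2, 113 CPM in LM2-LM). Vcan departed from this, since it was low in both LM2 (0.694 CPM) and LM2-LM (2.41 CPM) and at 40.4 CPM in LM3. Eng followed it and was low in Myc310 (1.88 CPM), LM2 (6.37 CPM) and LM3 (10.8 CPM) and high in LM1 (174 CPM) and LM2-LM (97.6 CPM).

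Summed levels of markers of other cell types were higher in LM3-LM in each of 4 lists, but few genes made up most of each sum. The summed level of 5 alveolar epithelial genes was 0.374 to 0.65 CPM in LM1-LM and 2.36 to 3.46 CPM in LM3-LM, with the surfactant genes Sftpc and Sftpb at 0 in both. The 8 leukocyte genes summed to 12.4 to 14.1 and 18 to 19.5 CPM, most of it Cd68 (means 12.65 and 15.02 CPM). Ptprc, the pan-leukocyte marker CD45, was at 0 in both lines. For the 8 endothelial genes the sums were 9.1 to 11.4 and 15 to 17.3 CPM, most of it Egfl7 (means 10.01 and 15.28 CPM). Erg was at 0 in both lines, Tie1 in LM1-LM and Tek in LM3-LM. Endothelial genes with 3 counts or fewer numbered 4 in LM1-LM and 6 in LM3-LM. The 11 fibroblast genes summed to 57.4 to 64.0 CPM in LM1-LM and 221 to 223 CPM in LM3-LM, most of it Col3a1. Fap, Thy1 and Postn were at 0 in both lines. Col1a1 (0.448 and 0.104 CPM) and Col1a2 (0.304 and 0.0868 CPM), both below the filter, were lower in LM3-LM. Among tested members of these 4 lists all 3 fibroblast genes, 2 of 3 leukocyte genes (S100a8, and Cd68, which did not pass without LM1-LM culture 2 or LM3-LM culture 1), the 1 endothelial gene (Egfl7) and both alveolar genes (Ager and Hopx) were higher in LM3-LM. The part of other cells in the matrix and immune results was not tested. Of 15 tested imprinted genes 5 were higher and 4 lower (60.0%, near the 53.1% of all autosomal genes) with a median of 0.03, among them Rtl1, a retrotransposon-derived gene of the placenta (0.149 against 2.22 CPM, log2 difference 3.88), and of 36 HOX genes on the autosomes 2 were tested and 32 had 3 counts or fewer in all 6 libraries. The HOX gene that passed was Hoxb4, with no count in LM1-LM and 1.32 ± 0.472 CPM in LM3-LM.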

How the data were processed

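The authors deposited read counts for each gene, in whole numbers, made from paired-end reads of polyadenylated RNA. The submitters' processing notes name STAR, RSEM, R 4.2.2 and DESeq2 1.38.3, and the strand setting is not given in the sources used here. Lines and medium were taken from the sample labels, and gene positions from GENCODE on GRCm38. The 3 cultures of LM3-LM and of LM1-LM were compared with edgeR 4.0.16 (R 4.3.3, limma 3.58.1; filterByExpr, TMM, quasi-likelihood test, Benjamini-Hochberg threshold 0.05) after a test on simulated data. A fit over 12 libraries with LM3 and LM1 gave the difference of the line differences. Autosomal medians used genes with an average log2 CPM of at least 3. The 33 gene lists and their members were chosen with earlier results of these data known. Named genes were the 12 largest changes per direction (average log2 CPM of at least 3, no overlap of cultures, no predicted genes) and genes detected in 1 line only. Up to 4 called members of each list were named, with members that set a contrast. A short glutathione list with Myc (genes the study names, plus Gclm) was also named. The rest had the smallest adjusted p of the difference of differences or the largest changes in chromosomal stretches. Alternatives were RLE and upper-quartile scaling, other filters, DESeq2 1.42.0, a replicate block, single libraries left out and all 30 control libraries. A 12-library fit of the same comparison was added after seeing the data. Counts limit precision for genes near the floor of 3 counts, and bounds cover counting error only. Some genes that met these rules are not reported here.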

Additional observations from a re-analysis of the deposited data

Results flagged for a closer look

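The line difference at the second lung passage differed from that at the first for 2046 autosomal genes, by the test of the difference of differences in edgeR over 12 libraries with Benjamini-Hochberg adjustment. With the cultures of 1 replicate number left out, this count was 1049 to 1363. Among genes at the floor in LM1-LM, for which the fitted size is no bound, the adjusted p was 5.78e-11 for Lpl, 8.1e-11 for Ina, 1.49e-08 for Rasef, 3.78e-08 for Cdcp1, 4.78e-11 for Tex101 and 3.78e-08 for Rangrf. Positive log2 values mean that LM3-LM minus LM1-LM was more positive, or less negative, than LM3 minus LM1. They were 4.89 for Bmp7, whose fitted size is no bound either since 2 of its LM1-LM libraries had no count, 4.86 for Trpa1, 3.89 for Vcan, 3.28 for Bst1, 3.40 for Dsp, 2.30 for Tnfrsf26, 1.87 for Dapk1 and 0.31 for Sort1, which was lower in LM3-LM and in LM3 alike and less so in LM3-LM. Negative values were -1.22 for Eng, -3.0 for P3h3, -1.94 for Anp32a, -0.80 for Cd24a, -0.80 for Msrb3, -0.66 for Col8a1, -0.98 for Enpp4, -2.04 for Bcat1, -1.93 for Fzd6, -3.24 for Fkbp10 and -1.58 for Hspb7. Groups of 3 cultures were not tested for outlying samples.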

How the results depend on the processing

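The counts of 3339 higher and 2986 lower genes were 3338 and 2990 with RLE scaling, 3225 and 3222 with upper-quartile scaling, 3069 and 2623 in DESeq2, and 3511 and 3214 in the 12-library fit added after seeing the data. With at least 10 counts in every library, the genes beyond 2-fold fell to 589 (473 higher, 116 lower), those of LM3 against LM1 to 450 (396 and 54), and those of the difference of differences to 175 (68 and 107), a filter that removes genes near 0 in one line. Leaving out the cultures of one number gave 1049 to 1363 genes for the difference of differences, 506 to 704 of them positive (639 without replicate 2) and 543 to 659 negative, from fewer samples. A floor of 0 counts left 14 and 0 genes detected in 1 line only, and a minimum of 100 counts 19 and 1. The chromosome 15 median was 0.472 with upper-quartile scaling, 0.478 at an average log2 CPM of at least 5, and 0.475 to 0.493 with single libraries left out. That of chromosome 8 was 0.0127 with upper-quartile scaling. Over all 30 libraries 8 luminal, 2 HOX and 5 fibroblast genes passed, and without LM1-LM replicate 2 or LM3-LM replicate 1 only 1 leukocyte gene did. Myc310 lay nearer LM3-LM for 41.0% of lower genes of any size, against 58.9% beyond 2-fold, and the cause was not tested. Replicate numbers shared only a number: same-numbered cultures had deviations correlated at 0.0605, 0.0307 and 0.137, not every culture correlated best with its own number, and the replicate block gave 3272 higher and 2858 lower genes.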
